A study of Mus musculus with 39 samples.

Results

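miR-146a and miR-146b are 2 microRNAs with near-identical 5p arms that are encoded on different chromosomes. Their features were taken by name from the deposited count lists of 39 mouse heart libraries: both arms of each hairpin on the sense strand, which gave 4 of 1684 features. The pair was chosen by measured values, its wide spread between libraries and its slope with age in males, so those values are given here as a description. What the choice did not use was whether the spread is shared by the loci inside groups of like libraries, the ratio between the loci, and the comparison of the sexes.

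miR-146a and miR-146b are known from innate immunity. The primary transcript of miR-146a is induced by NF-kB after toll-like receptor or cytokine signals. The mature miRNAs of the pair repress Traf6 and Irak1, which carry the same signal, so that miR-146a forms a negative feedback loop. The pair is found in white blood cells, endothelium, fibroblasts and heart muscle cells, and in heart it is mostly studied in inflammation and injury.

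The mice were wild-type FVB/NJ, an inbred strain, with no treatment or allele named in the labels. There were 2 male libraries at 4 weeks, 3 at 5, 12 at 6, 1 at 7, 4 at 8 and 1 at 16 weeks of age. There were 6 female libraries at 6 weeks, 3 at 7, 2 at 8 and 5 at 9 weeks. The protocol describes the ventricular apex while the tissue tag reads whole heart. Whether each library is its own animal is not stated, and a p-value here covers only the spread from library to library, some of which may be technical.

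The hairpins are shown first because the sequences set what a count of each arm can mean. They are from RefSeq (GRCm38.p6), 5′ to 3′, with the mature 5p arm and then the 3p arm in capitals:
Mir146 hairpin: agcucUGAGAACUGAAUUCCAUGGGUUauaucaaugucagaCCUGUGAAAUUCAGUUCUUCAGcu
Mir146b hairpin: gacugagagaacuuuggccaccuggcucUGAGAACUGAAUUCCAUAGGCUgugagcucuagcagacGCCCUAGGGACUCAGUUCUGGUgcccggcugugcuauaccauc
The mature arms follow with the seed, bases 2 to 8, in capitals:
miR-146a-5p: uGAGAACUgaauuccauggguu
miR-146b-5p: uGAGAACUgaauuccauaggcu
miR-146a-3p: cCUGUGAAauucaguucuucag
miR-146b-3p: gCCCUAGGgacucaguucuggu

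The 5p arms carry the same seed and the same first 17 bases, and they differ only by G18A and U21C, with miR-146a-5p as the reference and positions counted from 1 at the 5′ end. These 2 were the only mature miRNAs in the RefSeq table with that seed. A read that ends before base 18 therefore belongs to either locus, and no source used here gives the rule by which such reads were counted. The 3p arms have different seeds and, compared position by position from the 5′ end, differ at 18 of 22 bases. That count allows no shift between the arms, and a shifted alignment would match more bases.

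miR-146a-5p, deposited under the older gene name Mir146, lies at chr11:43374435-43374456 on the minus strand (GRCm38). Its own miRNA gene is the only annotated gene there; the nearest others are the lincRNA Gm12148 at 11026 bp and Pttg1, which encodes securin, at 45794 bp. miR-146b-5p lies at chr19:46342790-46342811 on the plus strand, in an intron of Mfsd13a on the same strand, with Cuedc2 at 4088 bp. The deposited coordinates of all 4 arms were those of RefSeq.

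The libraries held between 1788245 and 14563754 counts (median 8410768). In 4 libraries a single arm held over 40% of the counts. It was miR-143-3p, known from smooth muscle, in male_6wk replicates 2 and 6 and female_6wk replicate 1. In female_7wk replicate 2 it was an arm deposited under the name Gm25301-5p. Heart muscle miRNAs (miR-208a, miR-208b, miR-499, miR-133a and miR-1a) summed to 55799.7 CPM (the count scaled to a file total of 1e6) or more in every library. Most of this sum is miR-133a-2-3p, and no other tissue was compared, so it does not establish the labelled tissue. Any 2 libraries of a group differed by more than sampling noise (chi-square of at least 31.1 per degree of freedom).

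Because the labels name no batch or date, the libraries were sorted into 7 library sets after the data had been seen. The sorting used 8 miRNAs whose identical mature sequence comes from more than 1 locus (let-7a, let-7c, miR-16, miR-26a, miR-30c, miR-133a, miR-181a and miR-199a-3p) and the share of counts that each locus received. Neither miR-146 locus entered it. The sets come from counts of these same libraries and are not labelled batches. Set 1 held both male_4wk libraries, the 3 male_5wk libraries and female_6wk replicate 2. Set 2 held male_6wk replicates 1 to 5. Set 3 held male_6wk replicates 6, 7, 11 and 12, male_7wk replicate 1, female_6wk replicates 1 and 6, and female_7wk replicate 3. Set 4 held male_6wk replicates 8 to 10 and female_6wk replicates 3 to 5. Set 5 held male_8wk replicate 1, female_7wk replicates 1 and 2 and female_8wk replicate 1. Set 6 held male_8wk replicates 2 to 4, male_16wk replicate 1 and female_8wk replicate 2. Set 7 held the 5 female_9wk libraries.

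The 5p arms carried nearly all reads of the pair. miR-146a-5p had 159639 counts over the 39 libraries and miR-146b-5p had 56841. miR-146a-3p had 29 counts in all, 0 to 4 per library, with 21 libraries at 0. miR-146b-3p had 48 counts, 0 to 6 per library, with 17 libraries at 0. A count of 0 allows up to 3 counts, so the 3p arms were at or near the limit of detection, and neither they nor a ratio of the arms of a hairpin could be tested.

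In males, miR-146a-5p stood at 1306 and 654 CPM in the libraries of 4 weeks and at 1156, 877 and 659 CPM in those of 5 weeks. The 12 libraries of 6 weeks ran from 56.5 through a median of 126 to 1254 CPM. Only replicates 8, 9 and 10, at 1254, 969.6 and 569.5 CPM, were above 159.7 CPM, and the other 9 lay between 56.5 and 159.7 CPM. The library of 7 weeks had 162 CPM, those of 8 weeks had 92.1, 267, 243 and 357 CPM, and the library of 16 weeks had 621 CPM.

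In females of 6 weeks the level was 93.6 and 127 CPM in replicates 1 and 6, and 778, 746, 803 and 1110.1 CPM in replicates 2 to 5. The libraries of 7 weeks had 123, 45.7 and 164 CPM, and those of 8 weeks had 125 and 226 CPM. The libraries of 9 weeks had 1063, 737, 1049, 905 and 825 CPM, all above every female library of 7 and 8 weeks. Within each sex the 6-week libraries thus fell in 2 ranges with nothing between 159.7 and 569.5 CPM.

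miR-146b-5p kept to the same libraries at a lower count. In males it stood at 453 and 264 CPM at 4 weeks and at 366, 320.0 and 159 CPM at 5 weeks. At 6 weeks it ran from 9.48 through a median of 37.4 to 488 CPM, and again replicates 8, 9 and 10 (488, 319 and 203 CPM) were apart from the other 9, which lay at 50.0 CPM or below. It stood at 47.3 CPM at 7 weeks, at 24.0, 88.8, 81.8 and 107 CPM at 8 weeks and at 143 CPM at 16 weeks. In females of 6 weeks it had 23.9 and 35.8 CPM in replicates 1 and 6 and 253, 275, 299.9 and 400.0 CPM in replicates 2 to 5. At 7 weeks it had 46.7, 18.1 and 54.6 CPM, at 8 weeks 41.2 and 72.1 CPM, and at 9 weeks 399.8, 347, 386, 341 and 365 CPM.

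**Figure D1:**
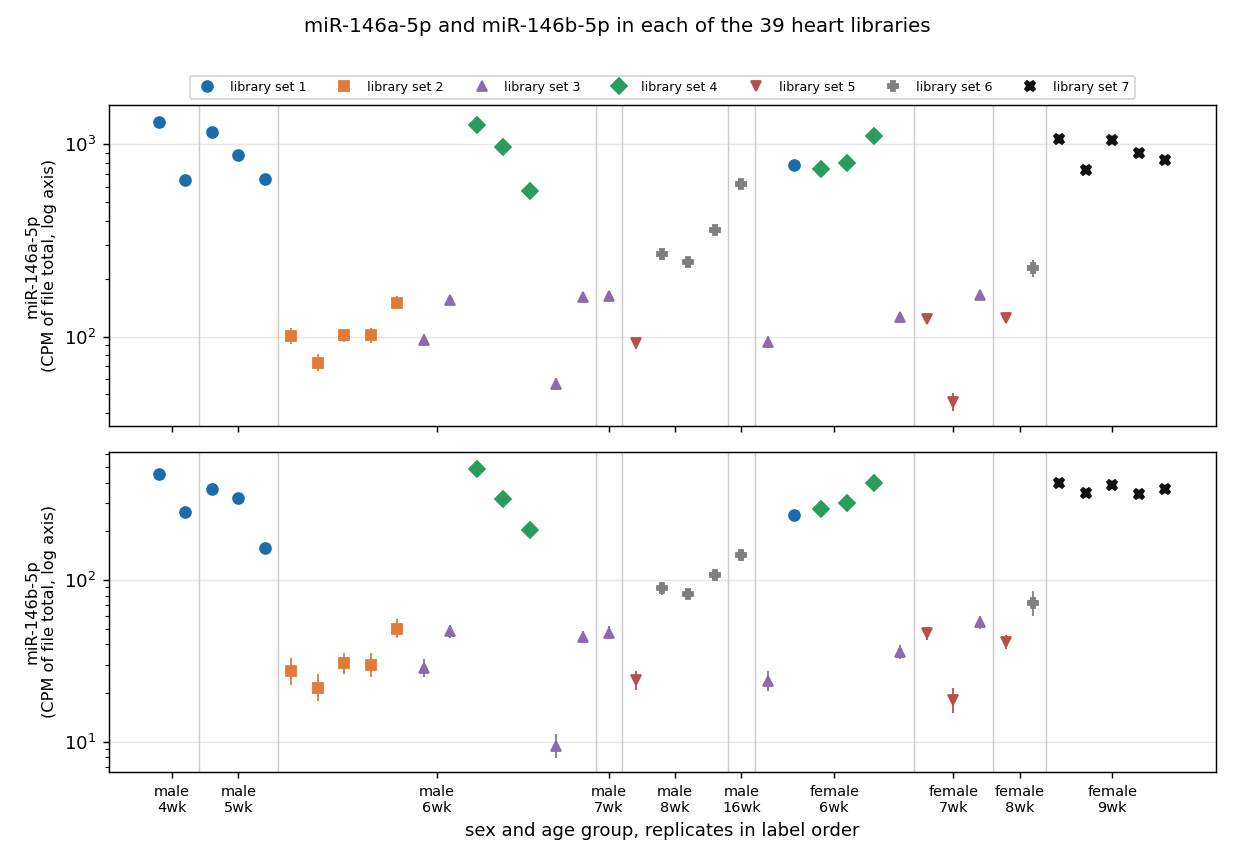
CPM of the file total for miR-146a-5p (top) and miR-146b-5p (bottom) on log axes, 1 point per library in order of sex and age, with 95% Poisson intervals for counting error; colour and symbol give the library set. Sets 1, 4 and 7 sit at 569.5 CPM or more of miR-146a-5p and sets 2, 3 and 5 at 164 CPM or less, in either sex.

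By group median, the order of miR-146a-5p was males of 4 weeks (980.1 CPM), females of 9 weeks (905), males of 5 weeks (877), females of 6 weeks (762), the male library of 16 weeks (621), males of 8 weeks (255), females of 8 weeks (176), the male library of 7 weeks (162), males of 6 weeks (126) and females of 7 weeks (123). The ranges of the first 4 overlapped each other, and so did those of males of 6 and 8 weeks and females of 7 and 8 weeks. The ranges at 6 weeks ran across nearly the whole order in both sexes.

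The highest library exceeded the lowest 28.6-fold for miR-146a-5p and 51.5-fold for miR-146b-5p. The SD of log2(CPM + 1) over the 39 libraries was 1.51 and 1.64, against a median of 0.512 over the 235 arms whose mean was at least 20 CPM, where miR-146b-5p ranked number 3 and miR-146a-5p number 6. This wide spread is what the pair was chosen for. Counting error was small beside it, with a bound at most 20.4% from the count, reached at the lowest count of 111. The spread followed the library sets: 91.5% of the variance of miR-146a-5p and 91.0% of that of miR-146b-5p lay between sets, where the median arm had 49.1%. The sex and age groups held 52.4% and 49.9%, where the median arm had 45.5%.

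The set medians of miR-146a-5p were 827 CPM in set 1, 102 in set 2, 141 in set 3, 886 in set 4, 107 in set 5, 267 in set 6 and 905 in set 7. Sets 1, 4 and 7 lay 5.88-fold, 6.30-fold and 6.43-fold above set 3. Those of miR-146b-5p were 292, 30.0, 40.1, 309, 32.6, 88.8 and 365 CPM in the same order, so that sets 1, 4 and 7 lay 7.29-fold, 7.72-fold and 9.12-fold above set 3. For neither arm did the ranges of sets 1, 4 and 7 overlap those of sets 2, 3 and 5. Set 6 was between them, apart from male_16wk replicate 1, which reached the range of the high sets for miR-146a-5p (621 CPM) but stayed under it for miR-146b-5p (143 CPM). Within sets the SD was 0.477 and 0.535 on the log2 scale, against 0.368 for the median arm. The part of the library set in these levels, as against age or sex, cannot be told apart where a set holds 1 group alone, as sets 2 and 7 do. No source used here gives the settings of adapter trimming or says whether they were alike in all libraries, so a CPM that differs between sets may differ through read processing as well as through RNA; the part of trimming was not tested.

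The loci shared the spread between libraries that remained inside the sets. As deviations from set means, log2(CPM + 1) of the arms correlated with Pearson r = 0.918 and Spearman rho = 0.940 over 39 libraries (permutation within sets, 100000 resamples, two-sided, p = 1e-05 for both, the smallest they can give; 1.75e-05 and 2.33e-05 after Benjamini-Hochberg adjustment over 7 relations). Without the 2 libraries farthest from the median, male_6wk replicate 11 and male_16wk replicate 1, r was 0.923. A single coefficient over all libraries is not given because the sets fall in separate ranges. Deviations of most arms went with miR-146a-5p: among the 233 other arms whose mean was at least 20 CPM, 223 had r above 0, with a median of 0.25, 16 had r over 0.5 and the highest was 0.85.

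Only sets 1, 3 and 4 held 6 or more libraries. Within set 3 (n = 8), r was 0.983 and rho 0.929 (exact permutation, two-sided, p = 0.000149 and 0.00223; adjusted 0.000208 and 0.00312), and r was 0.957 without the 2 farthest libraries. Within set 4 (n = 6), r was 0.983 and rho 1.0 (exact permutation p = 0.00139, the smallest that 6 libraries allow, and 0.00278; adjusted 0.00162 and 0.00324), and r was 0.949 without the 2 farthest. Within set 1 (n = 6), r was 0.877 (exact permutation p = 0.0167, adjusted 0.0167), but rho was 0.829 with p = 0.0583 by the exact permutation test, and r fell to 0.693 on the 4 libraries left without male_4wk replicate 1 and male_5wk replicate 1. The relation in set 1 therefore rests in part on those 2 libraries. CPM of both arms shares the file total as divisor, and the first 17 bases are shared, so that a read of either arm counted for the other would also tie them; that was not tested, because the 3p arms, which could tell the loci apart, were too low.

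**Figure D2:**
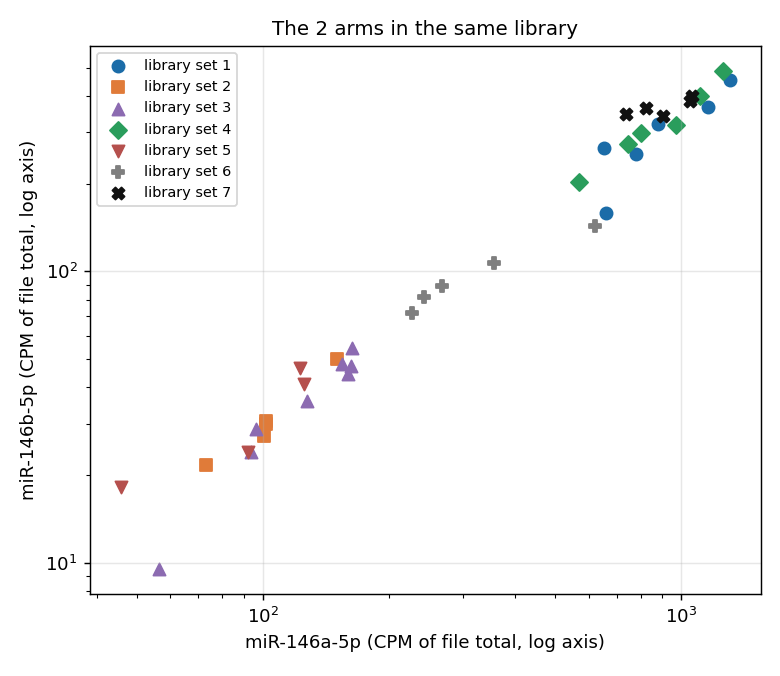
CPM of miR-146b-5p against CPM of miR-146a-5p in the same library, both on log axes, 1 point per library, coloured by library set. The libraries of sets 1, 4 and 7 form an upper range, those of sets 2, 3 and 5 a lower one, and within a set the higher library for 1 arm is mostly the higher for the other.

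The ratio of the loci does not depend on scaling, and over all libraries it varied far less than the levels. The count of miR-146b-5p over that of miR-146a-5p was 0.328 ± 0.0589 (SD, n = 39), from 0.168 to 0.471. The SD of its log2 was 0.276 over all libraries and 0.223 within sets, where the levels had 0.477 and 0.535. The mean ratio by set, from set 1 to set 7, was 0.333, 0.299, 0.277, 0.363, 0.342, 0.303 and 0.407. The ranges of set 3 (0.168 to 0.334) and set 7 (0.368 to 0.471) did not overlap. The lowest ratio belonged to male_6wk replicate 11, with 138 counts of miR-146b-5p to 823 of miR-146a-5p, which was also the library with the lowest miR-146b-5p. The next lowest were male_16wk replicate 1 at 0.230 and male_5wk replicate 3 at 0.241. The highest were female_9wk replicates 2 and 5 at 0.471 and 0.443.

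The ratio was compared in 3 tests, with p adjusted over the 3. At 6 weeks its log2 was -1.75 ± 0.298 in males (SD, n = 12) and -1.62 ± 0.227 in females (SD, n = 6), a difference of 0.13 (exact permutation over 18564 regroupings, two-sided, p = 0.406, adjusted 0.406), and the ranges overlapped. In males of 4 to 8 weeks the slope was -0.04 per week (n = 22, permutation p = 0.403, adjusted 0.406). In females of 6 to 9 weeks it was 0.09 per week (n = 16, permutation p = 0.0255, adjusted 0.0766), which did not pass. Females had a mean ratio of 0.327 at 6 weeks and 0.407 at 9 weeks, and all libraries of 9 weeks are set 7. As deviations from set means the female slope was 0.04 per week (permutation within sets p = 0.889). In females, age varies only inside sets 3 and 5. This test therefore has few possible regroupings and cannot decide whether the slope remains within sets.

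**Figure D3:**
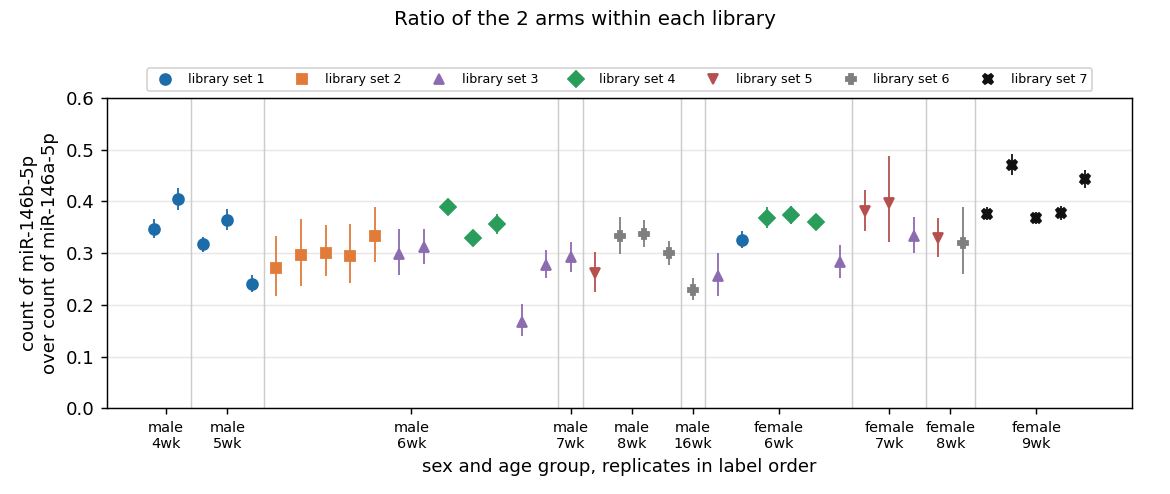
Count of miR-146b-5p divided by count of miR-146a-5p in each library, on a linear axis from 0, in order of sex and age, with 95% intervals for counting error; colour and symbol give the library set. Male_6wk replicate 11 is lowest at 0.168, and all other libraries lie between 0.230 and 0.471.

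Whether the sexes differ was asked at 6 weeks with 12 male and 6 female libraries. The log2 difference, female minus male, was 0.94 ± 0.69 (SE) for miR-146a-5p and 0.97 ± 0.76 for miR-146b-5p, and neither passed the quasi-likelihood test of edgeR (adjusted p = 0.491 and 0.509 over 339 arms tested). The 95% intervals ran from -0.50 to 2.38 and from -0.63 to 2.58, so differences of either direction and of several fold were not resolved. No arm of the 339 was called, 0% of those tested, with 25 at an unadjusted p under 0.05; DESeq2 called 0 with 31 and limma-voom 0 with 25.

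The makeup by set differed between the sexes at 6 weeks. Sets 1 and 4 held 4 of the 6 female libraries and 3 of the 12 male libraries. Inside set 4 the males had 569.5, 969.6 and 1254 CPM of miR-146a-5p and the females 746, 803 and 1110.1 CPM. Inside set 3 the 4 males had 56.5 to 159.7 CPM and the 2 females 93.6 and 127 CPM. With the library set as a term in the fit, the difference of females from males was -0.03 ± 0.24 for miR-146a-5p (95% interval -0.54 to 0.49) and -0.05 ± 0.32 for miR-146b-5p (-0.72 to 0.62), so the direction turned. Within set 3 alone it was 0.08 ± 0.40 and 0.01 ± 0.57, and within set 4 alone -0.11 ± 0.28 and -0.09 ± 0.30. A p that misses the threshold does not show that the sexes are alike.

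**Figure D4:**
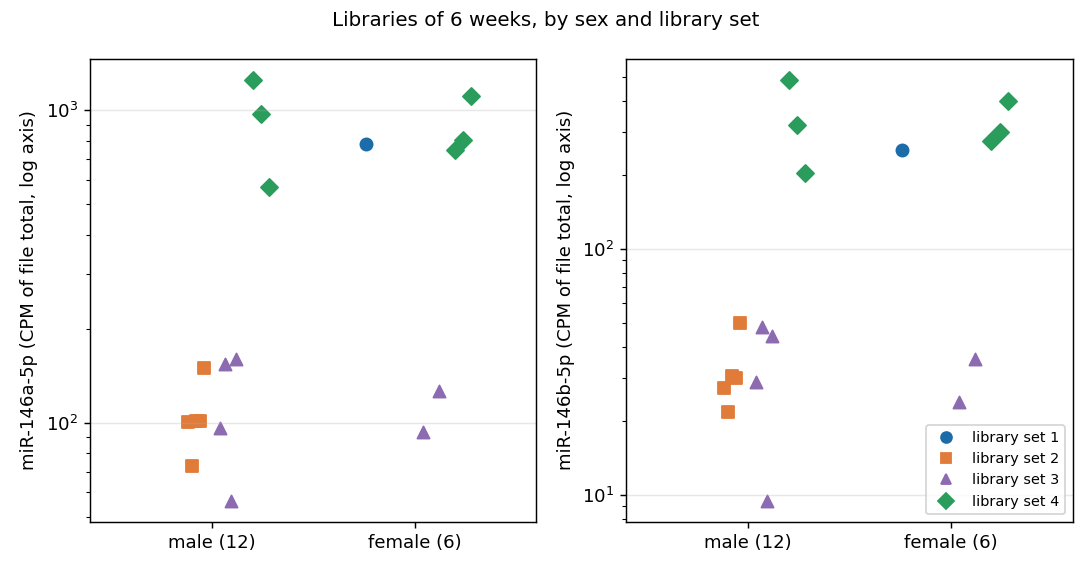
CPM of miR-146a-5p (left) and miR-146b-5p (right) in the libraries of 6 weeks on log axes, 12 male and 6 female, split sideways by library set. Set 4 libraries of both sexes lie at 569.5 CPM or more of miR-146a-5p and set 3 libraries of both sexes at 159.7 CPM or less.

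Over 6 to 8 weeks, with 17 male and 11 female libraries and age as a factor, the difference was 0.59 ± 0.49 for miR-146a-5p and 0.67 ± 0.55 for miR-146b-5p (edgeR adjusted p = 0.556 for both). No arm of 346 was called, 0%, with 46 at an unadjusted p under 0.05; DESeq2 called 0 with 54 and limma-voom 0 with 40. With the set as a term the differences were 0.09 ± 0.18 and 0.13 ± 0.23.

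The slope in males of 4 to 8 weeks was known when the pair was picked and is given as a description. It was -0.64 ± 0.22 (SE) per week in log2 for miR-146a-5p and -0.67 ± 0.25 for miR-146b-5p, in a comparison where 35% of the 346 arms tested were called and 21.4% of the 346 fell with age. All 5 libraries of 4 and 5 weeks are in set 1, which holds no older male. Among these males age differs only inside sets 1 and 3, and in set 3 through the 1 library of 7 weeks. A fit with the set as a term thus holds little contrast in age and cannot decide whether a slope remains within sets. With the set as a term the slopes were 0.08 ± 0.30 and -0.04 ± 0.38, and over 6 to 8 weeks alone they were -0.26 ± 0.39 and -0.33 ± 0.44. Inside set 1, between 4 and 5 weeks, they were -0.07 ± 0.34 and -0.30 ± 0.38. The male library of 16 weeks, which was left out of the slope, had more of both arms than any male of 7 or 8 weeks.

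In females of 6 to 9 weeks the slope was 0.30 ± 0.22 per week for miR-146a-5p and 0.36 ± 0.23 for miR-146b-5p (edgeR adjusted p = 0.507 and 0.411, 16 libraries), where 3.02% of 331 arms were called. The levels did not move steadily: the libraries of 7 and 8 weeks, none above 226 CPM of miR-146a-5p, stood below 4 of the 6 libraries of 6 weeks and below all 5 of 9 weeks. Age 9 weeks and set 7 are the same libraries and cannot be told apart. The female slope minus the male slope over 6 to 8 weeks was -0.62 ± 0.60 and -0.63 ± 0.66 (edgeR adjusted p = 0.549 and 0.584), where 2.02% of 346 arms were called, and it turned to 0.19 ± 0.20 and 0.28 ± 0.26 with the set as a term.

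The arm whose levels were most like both, apart from each other, was miR-24-3p of the Mir24-2 locus on chromosome 8, an abundant miRNA of heart and vessel cells. It ran from 161 to 2298 CPM, and its log2(CPM + 1) correlated with r = 0.98 with either arm over the 39 libraries, as a description. As deviations from set means the values were 0.85 with miR-146a-5p and 0.81 with miR-146b-5p. Its set medians were 1379, 272, 359.6, 1651, 275, 563 and 1948 CPM, with sets 1, 4 and 7 again high. The same mature sequence is made at the Mir24-1 locus on chromosome 13, where the files count it under the antisense name of Mir3074-1; that copy had r = 0.56. The Mir24-2 locus received from 16.0% to 64.8% of the counts of the 2 loci, and their sum, 624 to 4089.6 CPM, had r = 0.92 with miR-146a-5p.

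Next in likeness to miR-146a-5p were a feature counted antisense to Gm24083 that lies on miR-191-5p (r = 0.93), miR-10a-5p, which is encoded in the Hoxb cluster (0.86), miR-1943-5p (0.85) and miR-361-5p (0.84). With miR-146b-5p the same arms had r = 0.91, 0.86, 0.83 and 0.80. As deviations from set means their r with miR-146a-5p lay between 0.36 and 0.49, far below that of the pair itself, beside the median of 0.25 over the other arms. The least like were miR-149-5p (r = -0.82 with miR-146a-5p and -0.85 with miR-146b-5p) and miR-872-3p (-0.76 and -0.77). As deviations from set means these turned positive, 0.29 and 0.15 for miR-149-5p and 0.13 and 0.18 for miR-872-3p, so the opposite pattern lay between sets. miR-149-5p had set medians of 1066, 2554, 3053, 873, 3447, 1556 and 837 CPM, low where the pair was high. In all, 37 of the 235 arms, 15.7%, had r over 0.5 with miR-146a-5p, and the median arm had -0.08. All these r values share the libraries and their file totals as points.

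**Figure D5:**
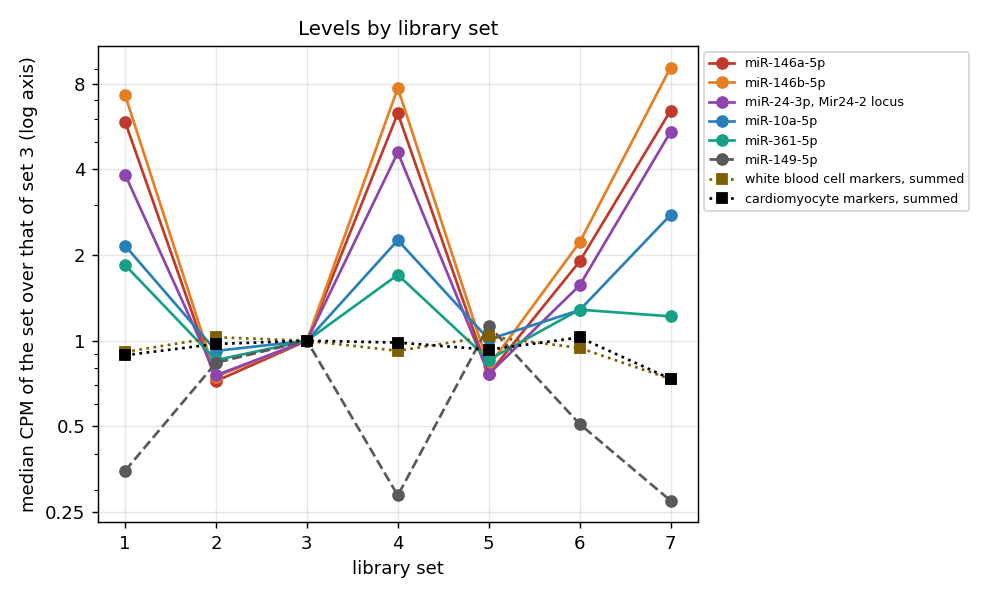
Median CPM of each library set divided by the median of set 3, on a log axis, for miR-146a-5p, miR-146b-5p, 3 arms of like pattern, miR-149-5p as an arm of opposite pattern, and the summed markers of white blood cells and heart muscle. The pair and miR-24-3p of Mir24-2 peak in sets 1, 4 and 7, while the summed markers of both cell types vary less and are lowest in set 7, although miR-1a-1-3p within the heart muscle sum is highest there.

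The other miRNAs of innate immune signalling were read over all libraries and inside the sets. Of 20 arms whose mean was at least 20 CPM, from the genes of miR-9, miR-21a, miR-125a, miR-125b, miR-132, miR-155, miR-181 and miR-223, 3 had r over 0.5 with miR-146a-5p over all libraries and 1 had r under -0.5, with a median of -0.07, beside -0.08 over the 235 arms. As deviations from set means all 20 were positive, 0.05 to 0.54, with a median of 0.28, beside 0.25 over the 233 other arms. The 3 were miR-125b-2-3p (0.75), miR-181a-1-5p (0.56) and miR-125b-1-3p (0.52), and the 1 was miR-181b-2-5p (-0.65, but 0.37 within sets). The 181a loci were among those used to form the sets. miR-155-5p, which NF-kB also induces, ran from 29.1 to 105 CPM with r = -0.11 over all libraries and 0.23 within sets. miR-223-3p, a miRNA of neutrophils and monocytes, ran from 25.7 to 139 CPM with r = 0.33 and 0.37. miR-132-3p, induced by CREB, ran from 40.7 to 132 CPM with r = 0.04 over all libraries, while within sets it had 0.54 with miR-146a-5p and 0.52 with miR-146b-5p, the highest of the list.

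None of the 20 was called for sex at 6 weeks or for age in females. In males of 4 to 8 weeks, 5 of the 20 fell and 2 rose with age by the same edgeR test, in a comparison where 21.4% of all arms fell and 13.6% rose. Those that fell were miR-125a-5p (-0.44 ± 0.08 per week, adjusted p = 0.000473), both miR-125b-5p loci, miR-125b-1-3p and miR-181a-1-5p, and those that rose were miR-155-5p (0.24 ± 0.04, adjusted p = 0.000306) and miR-181b-2-5p. None of these calls remained once sets were fitted as a term, or within set 1, where 0 of all arms were called. Every male of 4 and 5 weeks is in set 1, and among these males age differs only inside sets 1 and 3. Those fits hold little contrast in age and cannot decide whether the changes remain within sets. The miR-125b-5p loci make 1 identical mature sequence, so their split is uncertain.

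White blood cell markers were read beside the pair, since those cells carry miR-146a. In a bulk sample, fewer cells of a type and less RNA per cell cannot be told apart. The list had 6 arms whose mean was at least 20 CPM (2 of miR-142a, counted under antisense names, and miR-150-5p, miR-155-5p, miR-223-3p and miR-342-3p), none of them at 0 in any library. Their sum ran from 1912 to 7021 CPM. Its set medians were 2684 CPM in set 1, 2709 in set 4 and 2157 in set 7, where the pair was high, and 3024 in set 2, 2939.6 in set 3 and 3043 in set 5, where it was low. Of the 6, only miR-342-3p had r over 0.5 with miR-146a-5p (0.55), and miR-150-5p, a lymphocyte miRNA, had -0.67, over all libraries. Within sets these were 0.25 and 0.22, and the 6 had a median of 0.23. Endothelial markers (2 arms of miR-126) had set medians of 35886.6 CPM in set 1, 48697 in set 4 and 36745 in set 7 against 44502 in set 3. Over all libraries miR-126-3p had r = -0.48 with miR-146a-5p and miR-126-5p had 0.33. Within sets these were 0.40 and 0.50, beside a median of 0.25 over the other arms. The red blood cell list was mixed. Its sum, nearly all of it miR-486, had set medians of 124054, 105901 and 181171 CPM in sets 1, 4 and 7 and 128694 in set 6, against 71951 in set 3. miR-451, the defining red cell miRNA, had 2873, 2886 and 3326 CPM in sets 1, 4 and 7 and 3228 in set 3 (r = -0.31 over all libraries). miR-144-5p also had r = -0.31, but miR-144-3p, the more abundant arm of that hairpin, had 0.05. Within sets the 6 arms had a median r of 0.05. The sum of heart muscle markers is mostly miR-133a-2-3p. The miR-133a-3p loci make 1 mature sequence and were among those used to form the sets, so their split is uncertain. The 10 arms on that list whose mean was at least 20 CPM had a median r of -0.13 with miR-146a-5p over all libraries. Within sets the median was 0.22. Over all libraries 1 arm, miR-133a-1-5p, was under -0.5 (-0.60). The 1 arm over 0.5 was miR-1a-1-3p (r = 0.76 with miR-146a-5p and 0.78 with miR-146b-5p, and 0.51 with either within sets). Its set medians were 5591, 7827 and 11843 CPM in sets 1, 4 and 7 against 2875 in set 3. Fibroblast markers (8 arms) had a median r with miR-146a-5p of 0.22 over all libraries and 0.32 within sets. The list includes the miR-199a-3p loci, to which the same limit applies. Smooth muscle markers (4 arms) had -0.17 and 0.07, with 1 arm over 0.5 and 0 under -0.5 over all libraries. The part of these cell types in the levels of the pair was not tested.

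A further shared feature of the sequences was found after the values were seen and has no test. Both 5p arms hold GAAUU at bases 9 to 13, right after the seed, in capitals here with the 3 other arms of mean 20 CPM or more that hold it on the strand of the mature RNA:
miR-146a-5p: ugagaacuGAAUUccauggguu
miR-146b-5p: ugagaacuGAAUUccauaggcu
miR-10a-5p: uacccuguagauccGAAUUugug
miR-186-5p: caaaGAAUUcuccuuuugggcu
miR-192-5p: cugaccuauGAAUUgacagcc
These 5 were 2.89% of the 173 arms of that abundance with a RefSeq sequence, and 26 of 1674 distinct mature sequences in the table, 1.55%, hold it. Apart from the pair and miR-10a-5p, named above for its likeness, miR-186-5p had r = 0.65 and miR-192-5p 0.55 with miR-146a-5p over all libraries, and 0.53 and 0.29 within sets. Of the 168 arms with a sequence but without GAAUU, 22 (13.1%) also had r over 0.5 over all libraries. Among them were miR-24-3p of Mir24-2, the arm most like the pair (0.98), and miR-1943-5p and miR-361-5p. High likeness was therefore not confined to arms with GAAUU. The match describes letters only; how reads holding them were trimmed is not known, and its part in the levels was not tested.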

How the data were processed

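The authors deposited 1 list of read counts per library, whole numbers per mature miRNA arm; male and female files list somewhat different features, and the 372 of 1684 features missing from some files were set to 0 there. Per the labels' protocols, libraries were made with a TruSeq small RNA kit by adapter ligation and PCR, with no molecular identifiers named; ligation and PCR can bias levels between miRNAs, and intervals and floors cover counting error only. The submitters' processing notes list the build GRCm38 and the tools DESeq and edgeR, with no role. No source used here gives the aligner, the adapter trimming or how a read of more than 1 locus was counted.

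CPM scales a count to a file total of 1e6. Groups were compared with edgeR 4.0.16 in R 4.3.3 (TMM, quasi-likelihood F-test) over every arm that reached 5 CPM in 5 or more fitted libraries; p was adjusted by Benjamini-Hochberg over those arms and called under 0.05. Fold changes are log2 with SE. Alternatives were DESeq2 1.42.0, limma-voom 3.58.1, scaling by total counts, no filter, the library set as a term, fits within sets (added after the data were seen), leaving out each library or the 4 libraries that 1 arm dominates, and a replicate block. Library sets came from Ward clustering of the logit shares. Correlations and ratios (counts + 0.5) were tested by permutation (Python 3.11.15, scipy 1.17.1). Scripts were tested on simulated data. The pair, the lists and the tests were chosen with earlier results of these data known. The arms named are all miR-146 arms, the 5 other arms most like and the 2 least like each 5p arm by Pearson r among arms whose mean was at least 20 CPM, the innate immune arms of that abundance, the cell type markers and arms over 40% of a library; the GAAUU arms and the copy of miR-24-3p were added after their values were seen. Tests planned for the 3p arms (ratios of the arms of a hairpin and correlations with them) could not be run because they did not pass the filter.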

Additional observations from a re-analysis of the deposited data

How the results depend on the processing

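The correlation between the loci as deviations from set means lay between 0.909 and 0.923 over 4 alternatives and between 0.913 and 0.930 with each library left out. The log2 ratio comparisons kept their direction and stayed uncalled, with values from 0.05 to 0.20 for sex, from -0.11 to -0.01 for age in males and from 0.04 to 0.10 for age in females. With libraries left out in turn, the sex difference at 6 weeks ranged from 0.71 to 1.40 for miR-146a-5p and from 0.72 to 1.53 for miR-146b-5p, and no library turned its direction. The direction turned once sets were fitted as a term (-0.027 and -0.050) and within set 4 (-0.108 and -0.086), and for the sex by age difference with the set as a term (0.19 and 0.28); the cause was not tested.

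The male slope, known beforehand, was uncalled for miR-146a-5p with limma-voom (-0.63), no filter (-0.58), the set as a term (0.080, turned), 6 to 8 weeks alone (-0.26) and within set 1 (-0.073), and without male_4wk replicate 1 or male_8wk replicate 1 (range over libraries left out -0.73 to -0.59). For miR-146b-5p it was uncalled with total counts (-0.60), limma-voom (-0.73), no filter (-0.61), the set as a term (-0.037), 6 to 8 weeks alone (-0.33) and within set 1 (-0.30), and on leaving out any of 7 libraries, which were the first 2 of 4 weeks and of 5 weeks, that of 7 weeks, and numbers 1 and 3 of 8 weeks (-0.75 to -0.62); the cause was not tested.

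Counts of arms called over all arms moved by over 1.5 times as follows. For the male slope, 121 became 0 with the set as a term, 38 over 6 to 8 weeks and 0 within set 1. The fits with the set as a term and within set 1 hold little contrast in male age, so their counts of 0 cannot decide whether slopes remain. For the female slope, 10 became 48 with DESeq2, 25 with limma-voom, 1 with no filter and 0 with the set as a term, and 0 to 75 with a library left out. For sex by age, 7 became 0 with total counts, 25 with DESeq2, 1 with limma-voom, 1 with no filter, 94 with the set as a term, 1 without the dominated libraries, and 1 to 89 with a library left out.

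Replicate numbers are shared between groups but do not pair the libraries: the deviations of same-numbered male and female libraries of 6 weeks correlated from -0.374 to 0.326. At 6 weeks only numbers 1 to 6 occur in both sexes, so a sex difference with a replicate block rests on those numbers. For numbers 2 to 5 the sexes also differ in library set, with the males in set 2 and the females in sets 1 and 4. With a replicate block, the sex difference at 6 weeks was 2.13 ± 0.54 for miR-146a-5p and 2.27 ± 0.60 for miR-146b-5p (adjusted p = 0.0786 for both; 2 arms called), that over 6 to 8 weeks 1.11 and 1.27 (2 arms called), the male slope -0.65 and -0.67 (no longer called), the female slope 0.36 and 0.45 (0 called), and the sex by age difference -1.14 and -1.16 (0 called).

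Depth limits the 3p arms, which had at most 4 and 6 counts in a library, and separate animals, batches and dates are not given in the labels used here.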
